A study of Mus musculus with 9 samples.

Results

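The 10 genes described here are the simple-epithelium keratins Krt7, Krt8, Krt18 and Krt19, the annexins Anxa1, Anxa2 and Anxa3, the S100 genes S100a6 and S100a10, and Lgals1, which encodes galectin 1. They were picked by name, with the differences between the groups of this study already known, out of 35771 rows of a gene table from mouse embryonic stem cells (ESCs). Their levels, fold changes and calls are therefore given as a description, with no p-value. All 10 passed the filter on low counts, as did 13424 genes in all.

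The ESCs came from a mixed background, were homozygous for iMOS T1-Myc and carried RERT, a tamoxifen-inducible Cre allele. The cells were grown on gelatin with LIF, and the labels name no feeder layer. Cultures given 20 µM 4-hydroxytamoxifen for 24 h became mosaics of cells with different numbers of extra Myc and EYFP copies, and sorting on EYFP followed 24 h after the drug was removed. The first group is cells sorted for 2 extra Myc and EYFP copies (2-extra cells), and the second is cells sorted from the induced cultures for no extra copy (no-extra cells). The third group is sorted cells of uninduced cultures of the same genotype, which carry the unrecombined alleles. Each group has 3 libraries, called biological replicas by the submitters. The labels do not say that these were separate cultures, so the spread between libraries may be technical. Cells with 2 extra copies and cells with no extra copy differ in Myc copies, in EYFP copies and in the EYFP level sorted for. These cannot be told apart. Each of these groups also differs from uninduced cells in drug, recombination and mosaic culture, which cannot be told apart either. No source used here names the promoter that drives the extra Myc.

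Keratins 8 and 18 pair into the intermediate filaments of simple epithelia, and the same pair forms the first keratin filaments of the mouse embryo, in the trophectoderm. Annexins bind membrane phospholipids in the presence of calcium, and several of them dock to a small S100 protein. The best known such complex joins annexin A2 to S100A10 (p11) at the inner face of the plasma membrane, where it takes part in membrane traffic and plasminogen activation. Galectin 1 is secreted without a signal peptide and binds galactose-containing glycans on integrins and other glycoproteins.

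Library totals ran from 4165286 to 8872303 counts, and the 10 genes took 0.0232 to 0.0269% of all counts in cells with 2 extra copies, 0.0326 to 0.0353% in cells with no extra copy and 0.0162 to 0.0171% in uninduced cells. Myc was at 142 ± 4.36 CPM (counts scaled to a common library total) in cells with 2 extra copies, 31.6 ± 0.913 CPM in cells with no extra copy and 13.3 ± 1.51 CPM in uninduced cells (SD, n = 3 each). These counts do not separate the native gene from the extra copies, and the order of the first and second groups is that of their labels. All 6 naive ESC markers checked (Pou5f1, Nanog, Sox2, Zfp42, Esrrb and Klf4) were detected, with a summed level of 2261 to 2391 CPM in cells with 2 extra copies, 2472 to 2538 CPM in cells with no extra copy and 2426 to 2445 CPM in uninduced cells. The sum joins different orders. Pou5f1, Nanog, Esrrb and Klf4 had their highest means in cells with no extra copy, and Sox2 and Zfp42 in uninduced cells. Replicate 1 of the 2-extra cells stood apart: its counts differed from those of replicates 2 and 3 with a chi-square per degree of freedom of 2.67 and 3.02, against 1.35 to 1.80 for the other pairs within a group.

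Of the 10 genes, 9 had their highest mean in cells with no extra copy, an intermediate mean in cells with 2 extra copies and their lowest in uninduced cells, an order of means found in 13.8% of all genes tested. Anxa2 was the exception, with its lowest mean in cells with 2 extra copies. In 7 genes (Krt8, Krt18, Anxa1, Anxa3, S100a6, S100a10 and Lgals1) the libraries of the 3 groups fell in that order with no overlap, as in 0.849% of all genes tested. The genes were chosen with these contrasts in view, so nothing is read from the difference between these counts and their backgrounds. In bulk RNA, fewer cells of a type and less RNA per cell cannot be told apart.

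**Figure D1:**
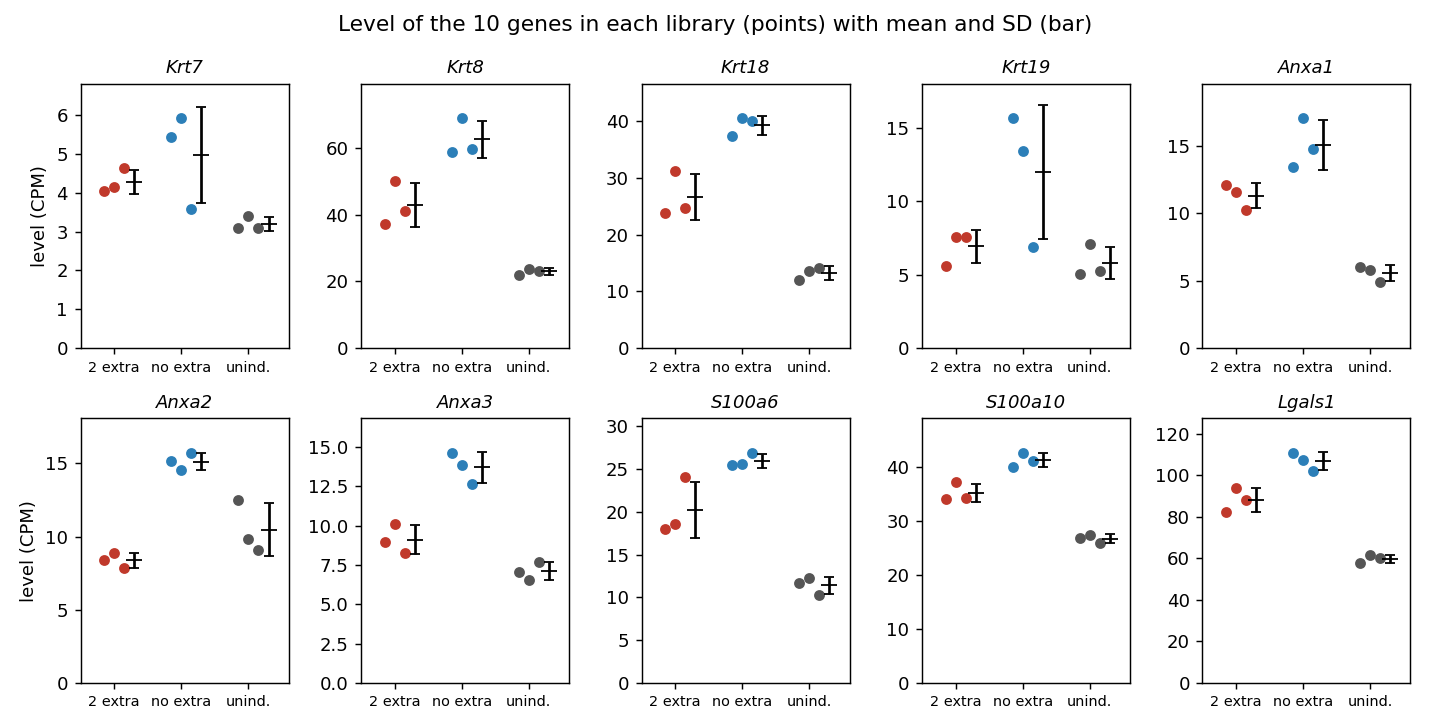
Level of each of the 10 genes (CPM after TMM scaling) in every library, 1 panel per gene, with cells with 2 extra Myc copies, cells with no extra copy and uninduced cells from left to right; points are libraries and the black marks are the mean with SD. The points of cells with no extra copy are the highest in most panels, Krt19 has 1 low library in that group, and in the Anxa2 panel the cells with 2 extra copies lie below the uninduced cells.

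Of the 10 genes, Krt8 and Krt18 had the largest ratios between cells with no extra copy and uninduced cells. Krt8, the type II partner of the pair (ENSMUSG00000049382, chr15:101996698-102004482, minus strand, GRCm38), was at 37.2, 50.05 and 41.1 CPM in cells with 2 extra copies, 58.8, 68.9 and 59.8 CPM in cells with no extra copy, and 21.9, 23.8 and 23.2 CPM in uninduced cells. Its ranges in the 3 groups did not overlap. Cells with 2 extra copies were 1.48-fold lower than cells with no extra copy (log2 fold change -0.57, SE 0.086) and 1.85-fold higher than uninduced cells (0.89, SE 0.10). Cells with no extra copy were 2.75-fold higher than uninduced cells (1.46, SE 0.093). Krt18, its type I partner (ENSMUSG00000023043, chr15:102028180-102032027, plus strand), was at 23.8, 31.3 and 24.6 CPM in cells with 2 extra copies, 37.4, 40.5 and 40.0 CPM in cells with no extra copy, and 11.9, 13.6 and 14.2 CPM in uninduced cells. Here too no library of 1 group reached into the range of another. The log2 fold change of Krt18 was -0.57 (SE 0.096) in cells with 2 extra copies against cells with no extra copy, 1.00 (SE 0.11) against uninduced cells, and 1.57 (SE 0.11) in cells with no extra copy against uninduced cells.

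The partners kept close proportions: per kilobase of transcript, the Krt8 level divided by that of Krt18 was 1.18 ± 0.0414 in cells with 2 extra copies, 1.17 ± 0.0762 in cells with no extra copy and 1.28 ± 0.0714 in uninduced cells (SD, n = 3 each). Their log2 CPM over the 9 libraries had a Pearson r of 0.995, the highest of the 45 pairs among the 10 genes, whose median was 0.832. These correlations share the libraries and the group means and are a description only. The genes lie head to head on chromosome 15, 23697 bases apart. Eif4b, Tns2 and Spryd3, the tested genes within 100 kb of them, did not pass the test between cells with no extra copy and uninduced cells (adjusted p = 0.160, 0.101 and 0.745, edgeR quasi-likelihood test). Against uninduced cells, Tns2 (log2 fold change 0.65, adjusted p = 0.000299) and Eif4b (0.25, adjusted p = 9.55e-07) rose in cells with 2 extra copies, where Krt8 and Krt18 were higher too. Eif4b also rose in cells with 2 extra copies against cells with no extra copy (log2 fold change 0.18, adjusted p = 0.000311), where the fold changes of Krt8 and Krt18 were negative. Within 100 kb of the 10 genes lay 15 other tested genes, of which 1 rose and 2 fell in cells with no extra copy against uninduced cells. Of all genes tested, 7.1% rose and 6.39% fell there. In cells with 2 extra copies against cells with no extra copy, 1 of the 15 rose and 3 fell, beside 8.3 and 7.7% of all genes tested. Against uninduced cells 2 rose and 1 fell in them, beside 12.8 and 12.1%.

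The promoters of these partners are shown because the genes moved together across the libraries. Each sequence is 300 bases of GRCm38.p6 from RefSeq, with 250 bases before the annotated start and 50 after it, written along the gene's strand. Capitals mark matches on either strand to 1 of 5 motifs: CACGTG, the E-box; TGANTCA, the binding motif of AP-1; TATAAA, which marks core promoters; GGAATG, the motif of TEAD factors; and GGGCGG, the motif of Sp1. The Krt8 window is chr15:102004293-102004592 on the minus strand, and that of Krt18 is chr15:102027966-102028265 on the plus strand.
Krt8: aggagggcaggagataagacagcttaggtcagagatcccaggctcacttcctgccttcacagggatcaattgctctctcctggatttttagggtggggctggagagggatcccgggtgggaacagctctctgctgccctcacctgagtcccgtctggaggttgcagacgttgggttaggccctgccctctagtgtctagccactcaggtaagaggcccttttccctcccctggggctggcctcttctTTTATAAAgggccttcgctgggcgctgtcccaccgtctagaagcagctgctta
Krt18: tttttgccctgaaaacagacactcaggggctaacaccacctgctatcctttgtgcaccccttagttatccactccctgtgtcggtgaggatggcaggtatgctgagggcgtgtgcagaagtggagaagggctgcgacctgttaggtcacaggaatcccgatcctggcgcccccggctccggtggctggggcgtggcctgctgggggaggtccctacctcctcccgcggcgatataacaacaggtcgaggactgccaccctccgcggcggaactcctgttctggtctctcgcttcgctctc
The Krt8 window holds overlapping matches to TATAAA on both strands, a motif present in 13.6% of 32851 RefSeq promoters of this length. No letters of the 5 motifs are in the Krt18 window.

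Krt7 and Krt19 were the weakly expressed keratins. Krt19, a type I keratin of ducts and simple epithelia (ENSMUSG00000020911, chr11:100140810-100148665, minus strand), was at 5.61, 7.59 and 7.53 CPM in cells with 2 extra copies, 15.6, 13.4 and 6.91 CPM in cells with no extra copy, and 5.06, 7.06 and 5.23 CPM in uninduced cells. Replicate 3 of the no-extra cells was low, with 29 counts, and through it the range of the no-extra cells overlapped with both others. The ranges of cells with 2 extra copies and uninduced cells also overlapped. The log2 fold change of Krt19 was -0.84 (SE 0.23) in cells with 2 extra copies against cells with no extra copy and 0.25 (SE 0.26) against uninduced cells, the last running from 0.16 to 0.43 over the alternatives, its ends being the fits without replicate 1 and without replicate 2 of the uninduced cells. In cells with no extra copy against uninduced cells it was 1.09 (SE 0.23), and 1.30 without that library. Krt7, a type II keratin of glandular and ductal epithelia (ENSMUSG00000023039, chr15:101411043-101430313, plus strand), was at 4.03, 4.16 and 4.64 CPM in cells with 2 extra copies, 5.44, 5.92 and 3.57 CPM in cells with no extra copy, and 3.09, 3.40 and 3.08 CPM in uninduced cells. The uninduced libraries were below all others, and the ranges of cells with 2 extra copies and cells with no extra copy overlapped. Krt7 had a log2 fold change of -0.27 (SE 0.23) in cells with 2 extra copies against cells with no extra copy, 0.42 (SE 0.24) against uninduced cells, and 0.69 (SE 0.23) in cells with no extra copy against uninduced cells. The first value was -0.11 without replicate 2 and -0.41 without replicate 3 of the no-extra cells.

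Among the annexins, Anxa1 and Anxa3 followed the keratin order, and Anxa2 did not. Anxa1, known as an anti-inflammatory and membrane-repair annexin (ENSMUSG00000024659, chr19:20373428-20390944, minus strand), was at 12.1, 11.6 and 10.3 CPM in cells with 2 extra copies, 13.4, 17.1 and 14.8 CPM in cells with no extra copy, and 6.05, 5.80 and 4.93 CPM in uninduced cells. The uninduced libraries were about level with each other and lay well under both induced groups. Cells with 2 extra copies were 1.36-fold lower than cells with no extra copy (log2 fold change -0.44, SE 0.14) and 2.00-fold higher than uninduced cells (1.00, SE 0.16), and cells with no extra copy were 2.72-fold higher than uninduced cells (1.45, SE 0.15). Anxa3, an annexin abundant in neutrophils (ENSMUSG00000029484, chr5:96793339-96845966, plus strand) was at 8.94, 10.1 and 8.26 CPM in cells with 2 extra copies, 14.6, 13.8 and 12.6 CPM in cells with no extra copy, and 7.03, 6.55 and 7.70 CPM in uninduced cells. Its ranges did not overlap, though the lowest library with 2 extra copies was close to the highest uninduced one. The difference between these groups was not called in the fit over all genes. The log2 fold change of Anxa3 was -0.61 (SE 0.14) in cells with 2 extra copies against cells with no extra copy, 0.36 (SE 0.16) against uninduced cells, and 0.96 (SE 0.15) in cells with no extra copy against uninduced cells.

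Anxa2, the calcium-dependent membrane linker that binds S100A10 (ENSMUSG00000032231, chr9:69453620-69491795, plus strand), was at 8.41, 8.85 and 7.82 CPM in cells with 2 extra copies, 15.1, 14.5 and 15.7 CPM in cells with no extra copy, and 12.5, 9.83 and 9.08 CPM in uninduced cells. The cells with 2 extra copies were the lowest of the 3 groups, and no ranges overlapped. They were 1.80-fold lower than cells with no extra copy (log2 fold change -0.85, SE 0.15) and 1.26-fold lower than uninduced cells (-0.33, SE 0.15). Without replicate 1 of the uninduced cells the last value was -0.19. The difference from uninduced cells was not called in the fit over all genes. Cells with no extra copy were 1.43-fold higher than uninduced cells (0.52, SE 0.14). The lowest correlation among the 45 pairs, a Pearson r of 0.276, was that of Anxa2 with Krt7.

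The Anxa2 promoter is printed because this gene broke the order of means of the others (RefSeq, GRCm38.p6, chr9:69453433-69453732, plus strand), with capitals as above.
Anxa2: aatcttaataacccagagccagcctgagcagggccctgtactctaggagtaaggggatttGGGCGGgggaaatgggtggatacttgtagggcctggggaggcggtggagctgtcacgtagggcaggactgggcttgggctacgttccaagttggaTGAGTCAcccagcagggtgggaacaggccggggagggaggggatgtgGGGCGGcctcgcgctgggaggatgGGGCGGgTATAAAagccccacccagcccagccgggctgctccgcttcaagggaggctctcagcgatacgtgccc
It holds TGAGTCA, a form of the AP-1 motif TGANTCA that is present in 7.81% of all promoters of this length, next to TATAAA and 3 copies of GGGCGG, a motif in 35.7% of them.

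S100A10, the partner of annexin A2, differed less than Anxa2 between the induced groups and followed the order of the keratins. S100a10 (ENSMUSG00000041959, chr3:93555080-93564643, plus strand) was at 34.2, 37.2 and 34.3 CPM in cells with 2 extra copies, 40.1, 42.7 and 41.2 CPM in cells with no extra copy, and 26.9, 27.5 and 25.9 CPM in uninduced cells. The libraries of each group lay close together, with no overlap. The log2 fold change of S100a10 was -0.24 (SE 0.079) in cells with 2 extra copies against cells with no extra copy, 0.39 (SE 0.083) against uninduced cells, and 0.63 (SE 0.080) in cells with no extra copy against uninduced cells. Per kilobase, Anxa2 divided by S100a10 was 0.112 ± 0.00434 in cells with 2 extra copies, 0.173 ± 0.0107 in cells with no extra copy and 0.185 ± 0.0305 in uninduced cells (SD, n = 3 each). The ratio was thus lowest with 2 extra copies, where it ran from 0.108 to 0.117, below the 0.161 to 0.181 of cells with no extra copy and the 0.166 to 0.221 of uninduced cells. Per kilobase, Anxa1 divided by Anxa2 ran the other way, at 1.17 ± 0.0635 in cells with 2 extra copies, 0.866 ± 0.133 in cells with no extra copy and 0.465 ± 0.0462 in uninduced cells (SD, n = 3 each).

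S100a6, encoding calcyclin, a calcium-binding protein of proliferating and stromal cells (ENSMUSG00000001025, chr3:90612882-90624181, plus strand), was at 18.1, 18.6 and 24.0 CPM in cells with 2 extra copies, 25.5, 25.6 and 26.9 CPM in cells with no extra copy, and 11.7, 12.2 and 10.3 CPM in uninduced cells. Replicate 3 of the 2-extra cells came close to the cells with no extra copy, and the ranges did not overlap. The log2 fold change of S100a6 was -0.34 (SE 0.11) in cells with 2 extra copies against cells with no extra copy and 0.83 (SE 0.12) against uninduced cells, the last being 0.68 without that replicate. Cells with no extra copy were 2.26-fold higher than uninduced cells (1.17, SE 0.12). Its promoter is printed because it holds the E-box CACGTG, a sequence that Myc and Max bind (RefSeq, GRCm38.p6, chr3:90612644-90612943, plus strand).
S100a6: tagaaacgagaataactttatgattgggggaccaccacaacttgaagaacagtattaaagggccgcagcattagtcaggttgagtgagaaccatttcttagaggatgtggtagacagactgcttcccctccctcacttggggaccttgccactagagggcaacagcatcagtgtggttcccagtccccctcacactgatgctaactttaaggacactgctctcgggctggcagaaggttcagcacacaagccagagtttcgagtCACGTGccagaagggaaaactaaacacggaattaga
The capitals mark CACGTG, present in 7.15% of all promoters of this length. It begins at position 15 counted from the annotated start. Of the 6 promoters searched among the 10 genes, no other held it. A match of letters is a description and does not show a bound site.

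Lgals1 (ENSMUSG00000068220, chr15:78926725-78930465, plus strand) was at 82.4, 93.8 and 88.4 CPM in cells with 2 extra copies, 111, 108 and 102 CPM in cells with no extra copy, and 57.8, 61.5 and 60.03 CPM in uninduced cells. No ranges overlapped, and the spread within a group was small against the steps between groups. Cells with 2 extra copies were 1.22-fold lower than cells with no extra copy (log2 fold change -0.28, SE 0.056) and 1.47-fold higher than uninduced cells (0.56, SE 0.059). Cells with no extra copy were 1.79-fold higher than uninduced cells (0.84, SE 0.057). S100a6, S100a10 and Lgals1 have short transcripts (731, 685 and 800 bases), and the libraries differed in how the count depended on transcript length. The slope of log2 level per doubling of length was 0.0064, -0.047 and -0.056 in cells with 2 extra copies, -0.0048, 0.0042 and 0.015 in cells with no extra copy, and 0.046, 0.019 and 0.018 in uninduced cells. With that trend removed, the log2 fold change of Lgals1 in cells with 2 extra copies against uninduced cells was 0.47, and that of S100a10 was 0.30.

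**Figure D2:**
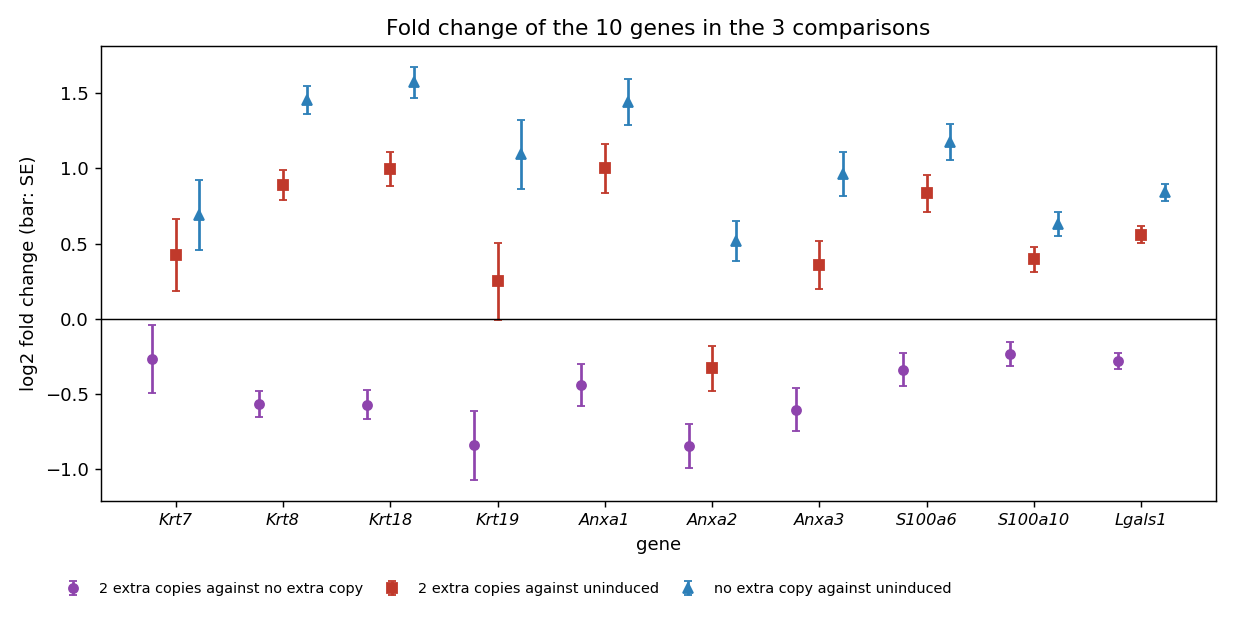
Log2 fold change with its standard error for each of the 10 genes in the 3 comparisons, from 1 fit over 9 libraries. The vertical axis is log2 fold change and points below 0 are lower in the first-named group: cells with 2 extra copies were lower than cells with no extra copy in all 10 genes, and Anxa2 was the gene also lower than in uninduced cells. In cells with 2 extra copies against uninduced cells, Krt7, Krt19, Anxa2 and Anxa3 were not called.

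Per kilobase of transcript, Lgals1 was the most abundant of the 10 genes in each group, at 110 ± 7.12 CPM per kilobase in cells with 2 extra copies, 134 ± 5.47 in cells with no extra copy and 74.7 ± 2.34 in uninduced cells (SD, n = 3 each). In uninduced cells its level was above that of 92.6% of the genes tested. S100a10, S100a6, Krt8 and Krt18 followed in that order in all 3 groups. In cells with no extra copy, S100a6 at 35.6 ± 1.09 and Krt8 at 31.9 ± 2.84 CPM per kilobase were close neighbours in this order (SD, n = 3 each). Krt7 was last, at 1.04 CPM per kilobase in cells with 2 extra copies, 1.22 in cells with no extra copy and 0.780 in uninduced cells, where 8.06% of the genes tested were lower. For scale, the median gene tested was at 8.54 CPM per kilobase in cells with 2 extra copies, 8.70 in cells with no extra copy and 8.81 in uninduced cells.

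At an adjusted p below 0.05 in the fit over all genes, 9 of the 10 genes were lower in cells with 2 extra copies than in cells with no extra copy, all but Krt7. In that comparison 7.7% of all genes tested were called lower and 8.3% higher. With replicate 2 of the no-extra cells left out, 5 of the 10 were called, and without replicate 1 of the 2-extra cells 7 were. Against uninduced cells, 6 of the 10 were higher in cells with 2 extra copies, where 12.8% of all genes tested were called higher and 12.1% lower. Without replicate 1 of the 2-extra cells the number was again 6. With all libraries, none of the 10 was called lower than in uninduced cells, and the 4 not called were Krt7, Krt19, Anxa2 and Anxa3. All 10 were higher in cells with no extra copy than in uninduced cells, where 7.1% of all genes tested were called higher and 6.39% lower. The median log2 fold change of the 10 genes was -0.51 for cells with 2 extra copies against cells with no extra copy, 0.49 against uninduced cells and 1.03 for cells with no extra copy against uninduced cells, beside -0.012, -0.014 and 0.0022 over all genes tested. Since these contrasts chose the genes, nothing is read from these counts.

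Relatives were taken as every other gene of the annotation named as a keratin, annexin, S100 protein or galectin, 81 genes. The naming rule used no values, but the 10 genes it leaves out were chosen with these contrasts known. The relatives are thus what remained of the families after that choice. Of these, 58 had a count and 16 passed the filter: 3 of 50 keratins, 6 of 9 annexins, 3 of 15 S100 genes and 4 of 7 galectins. In cells with 2 extra copies against cells with no extra copy, 7 of the 16 fell, 1 rose and 8 did not pass the edgeR test. Without replicate 3 of the 2-extra cells, 5 of the 16 were called. Against uninduced cells, 2 rose, 2 fell and 12 did not pass in cells with 2 extra copies. In cells with no extra copy against uninduced cells, 6 rose and 10 did not pass. Their median log2 fold changes in this order of comparisons were -0.26, 0.035 and 0.18. In the same order, 8.3, 12.8 and 7.1% of all genes tested rose and 7.7, 12.1 and 6.39% fell.

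Anxa5, whose protein binds phosphatidylserine, had the order of Anxa1: 12.9 ± 1.55 CPM in cells with 2 extra copies, 19.1 ± 1.66 CPM in cells with no extra copy and 9.65 ± 0.682 CPM in uninduced cells (SD, n = 3 each). It was lower in cells with 2 extra copies than in cells with no extra copy (log2 fold change -0.59, SE 0.12, adjusted p = 0.000900, edgeR) and higher in cells with no extra copy than in uninduced cells (1.00, SE 0.13, adjusted p = 4.64e-07). Its rise in cells with 2 extra copies over uninduced cells (0.41, adjusted p = 0.0265) lost the call without replicate 1 or 2 of the 2-extra cells (adjusted p = 0.0592 and 0.121) and without replicate 2 or 3 of the uninduced cells (0.0808 and 0.0837), and with DESeq2 (0.130). Anxa6, a large annexin with a doubled core, was lowest in cells with 2 extra copies, as Anxa2 was: 67.9 ± 5.36 CPM there, 92.6 ± 0.813 CPM in cells with no extra copy and 82.3 ± 3.88 CPM in uninduced cells (SD, n = 3 each). It fell in cells with 2 extra copies against cells with no extra copy (-0.45, adjusted p = 2.35e-06) and against uninduced cells (-0.27, adjusted p = 0.000793). Anxa8 ran the other way, at 20.7 ± 2.57 CPM in cells with 2 extra copies, 16.0 ± 1.62 CPM in cells with no extra copy and 15.4 ± 1.26 CPM in uninduced cells (SD, n = 3 each). Its rise over cells with no extra copy (0.40, adjusted p = 0.0190) lost the call without replicate 3 of the 2-extra cells (0.117) or replicate 2 of the no-extra cells (0.172), and that over uninduced cells (0.44, adjusted p = 0.00537) without replicate 3 of the 2-extra cells (0.0557). With DESeq2 neither rise of Anxa8 was called (adjusted p = 0.137 over cells with no extra copy and 0.0530 over uninduced cells).

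S100a11, another small annexin-binding S100 gene, lies 28793 bases from S100a10. It was at 37.3 ± 0.476 CPM in cells with 2 extra copies, 49.4 ± 3.89 CPM in cells with no extra copy and 37.5 ± 1.45 CPM in uninduced cells (SD, n = 3 each). It was lower in cells with 2 extra copies than in cells with no extra copy (log2 fold change -0.40, adjusted p = 0.000322) and higher in cells with no extra copy than in uninduced cells (0.39, adjusted p = 0.000281, edgeR). Between cells with 2 extra copies and uninduced cells it did not pass the test (adjusted p = 0.964). The annotated genes Gm12854 and Gm7665 match 58.1% of its transcript at 99.0% and 98.6% identity and were not analysed here; whether reads of theirs were counted for S100a11 was not tested. Lgals3, encoding galectin 3, was at 34.2 ± 3.68 CPM in cells with 2 extra copies, 41.6 ± 1.04 CPM in cells with no extra copy and 29.9 ± 1.66 CPM in uninduced cells (SD, n = 3 each), and rose in cells with no extra copy over uninduced cells (0.47, adjusted p = 9.92e-05). Lgals9, encoding galectin 9, fell in cells with 2 extra copies, at 4.46 CPM, against 7.60 CPM in uninduced cells (-0.76, adjusted p = 0.00282). Of the keratins outside the 10 genes, Krt17, known from hair follicles and wounded epidermis, was named after its values were seen. It was at 8.73 ± 0.429 CPM in cells with 2 extra copies, 14.0 ± 0.953 CPM in cells with no extra copy and 9.30 ± 0.975 CPM in uninduced cells (SD, n = 3 each), with an adjusted p of 0.000914 between the induced groups and 0.00283 between cells with no extra copy and uninduced cells.

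**Figure D3:**
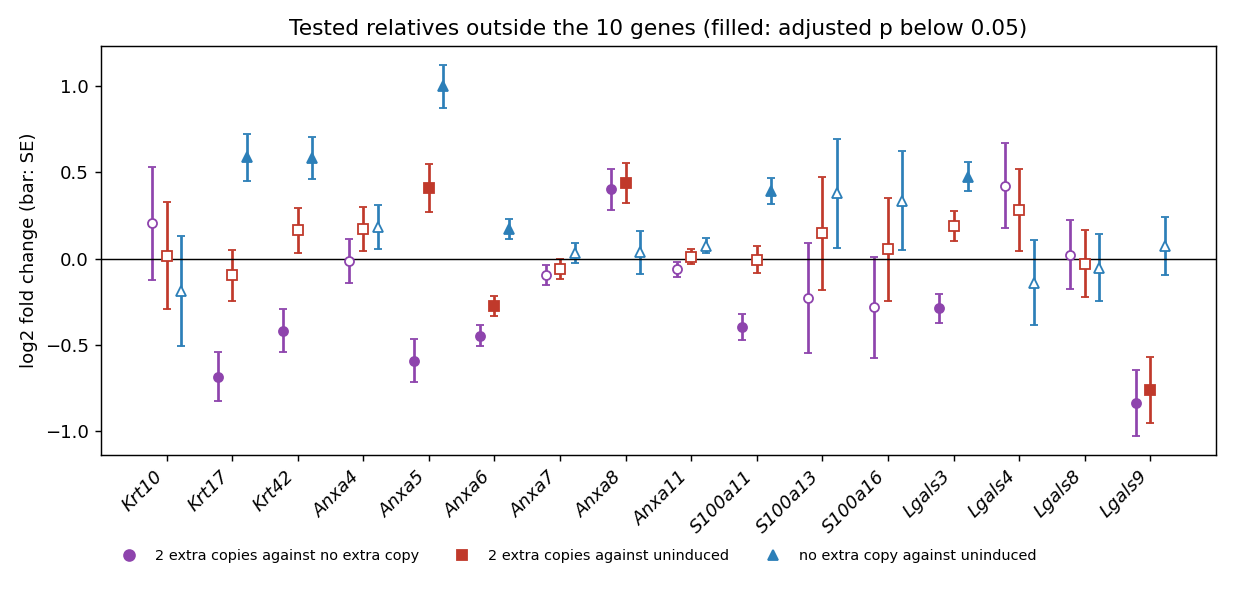
Log2 fold change with its standard error for the 16 relatives that passed the filter, in the 3 comparisons; filled points have an adjusted p below 0.05. Between cells with 2 extra copies and cells with no extra copy, 7 filled points lie below 0 and 1 above it.

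The list of genes that anchor keratin filaments at junctions also holds vimentin, another filament protein. Of its 13 tested genes, Dsp, Jup and Vim were lower in cells with 2 extra copies than in cells with no extra copy, which is 3 of 13, and 10 did not pass. In cells with 2 extra copies against uninduced cells, 1 fell and 12 did not pass: Dsg2, the desmosomal cadherin desmoglein 2, had a log2 fold change of -0.41 (adjusted p = 0.00843, edgeR), a call lost with DESeq2 (0.0503), without replicate 1 of the uninduced cells (0.0727) and without replicate 2 of the 2-extra cells (0.0807). Between cells with no extra copy and uninduced cells, 5 of the 13 rose (Vim among them), 1 fell and 7 did not pass. Over all genes tested, 8.3, 12.8 and 7.1% rose and 7.7, 12.1 and 6.39% fell in these 3 comparisons. Dsp, encoding desmoplakin, which ties keratins to the desmosome, was at 15.6 ± 2.31 CPM in cells with 2 extra copies, 24.9 ± 3.76 CPM in cells with no extra copy and 12.2 ± 1.14 CPM in uninduced cells (SD, n = 3 each). Its log2 fold change was -0.69 (adjusted p = 0.000145) between the induced groups and 1.03 (adjusted p = 2.19e-07) in cells with no extra copy over uninduced cells. Jup, encoding plakoglobin of desmosomes and adherens junctions, was at 123 ± 3.32 CPM in cells with 2 extra copies, 159 ± 2.06 CPM in cells with no extra copy and 123 ± 1.56 CPM in uninduced cells (SD, n = 3 each). It fell in cells with 2 extra copies against cells with no extra copy (-0.36, adjusted p = 5.24e-07) and rose in cells with no extra copy over uninduced cells (0.37, adjusted p = 1.15e-07), and did not pass between cells with 2 extra copies and uninduced cells (adjusted p = 0.908). Vim, the mesenchymal filament protein vimentin, also fell in cells with 2 extra copies against cells with no extra copy (-0.23, adjusted p = 0.00207) and rose in cells with no extra copy over uninduced cells (0.29, adjusted p = 8.78e-05).

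Of 9 tested genes for partners of annexins and S100 proteins, 3 fell and 1 rose in cells with 2 extra copies against cells with no extra copy. In cells with 2 extra copies against uninduced cells 2 rose and 1 fell, and in cells with no extra copy against uninduced cells 2 rose. The shares of all genes tested that rose in these 3 comparisons were 8.3, 12.8 and 7.1%, and 7.7, 12.1 and 6.39% fell. Dysf, the membrane-repair protein dysferlin, fell in cells with 2 extra copies against cells with no extra copy (log2 fold change -0.57, adjusted p = 0.00170) and rose in cells with no extra copy over uninduced cells (0.53, adjusted p = 0.00248). Cacybp, encoding a binding partner of S100A6, differed from S100a6 in its order: it was at 342 ± 2.71 CPM in cells with 2 extra copies, 309 ± 3.70 CPM in cells with no extra copy and 305 ± 4.37 CPM in uninduced cells (SD, n = 3 each). Its rise was 0.14 over cells with no extra copy (adjusted p = 0.00567) and 0.17 over uninduced cells (adjusted p = 0.000859).

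Of 8 tested genes for ligands of galectin 1 and enzymes that build its glycans, 2 fell and 1 rose in cells with 2 extra copies against cells with no extra copy. Against uninduced cells, 2 fell in cells with 2 extra copies, and 3 rose and 2 fell in cells with no extra copy. Among all genes tested, 8.3, 12.8 and 7.1% rose and 7.7, 12.1 and 6.39% fell in these 3 comparisons. Itgb1, encoding integrin beta 1, was at 144 ± 4.86 CPM in cells with 2 extra copies, 171 ± 6.78 CPM in cells with no extra copy and 147 ± 3.61 CPM in uninduced cells (SD, n = 3 each), and passed the test between the induced groups (log2 fold change -0.25, adjusted p = 0.000162) and between cells with no extra copy and uninduced cells (0.22, adjusted p = 0.000490). B4galt1, an enzyme that adds the galactose which galectins bind, fell in cells with 2 extra copies against cells with no extra copy (-0.32, adjusted p = 0.00172) and rose in cells with no extra copy over uninduced cells (0.40, adjusted p = 9.75e-05). St6gal1, whose sialic acid cap blocks galectin 1, fell in cells with 2 extra copies against uninduced cells (-0.47, adjusted p = 0.00371). It also fell in cells with no extra copy against uninduced cells (-0.34, adjusted p = 0.0473, edgeR), a call lost with DESeq2 (0.267). Between the induced groups it did not pass the edgeR test (adjusted p = 0.566).

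Among 15 tested transcription factors known from epithelia, 4 fell in cells with 2 extra copies against cells with no extra copy and 11 did not pass. In cells with 2 extra copies against uninduced cells 1 rose and 2 fell, and in cells with no extra copy against uninduced cells 3 rose. Of all genes tested, 8.3, 12.8 and 7.1% rose and 7.7, 12.1 and 6.39% fell in these 3 comparisons. Klf4, a factor of naive ESCs and of differentiated epithelia, was at 55.3 ± 0.792 CPM in cells with 2 extra copies, 67.8 ± 2.21 CPM in cells with no extra copy and 55.8 ± 0.292 CPM in uninduced cells (SD, n = 3 each). It fell in cells with 2 extra copies against cells with no extra copy (log2 fold change -0.30, adjusted p = 0.000986) and rose in cells with no extra copy over uninduced cells (0.28, adjusted p = 0.00118). Jun, a subunit of AP-1, fell in cells with 2 extra copies against cells with no extra copy (-0.63, adjusted p = 0.00181), and Elf3, an Ets factor of simple epithelia, fell in cells with 2 extra copies against uninduced cells (-0.37, adjusted p = 0.00301).

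**Figure D4:**
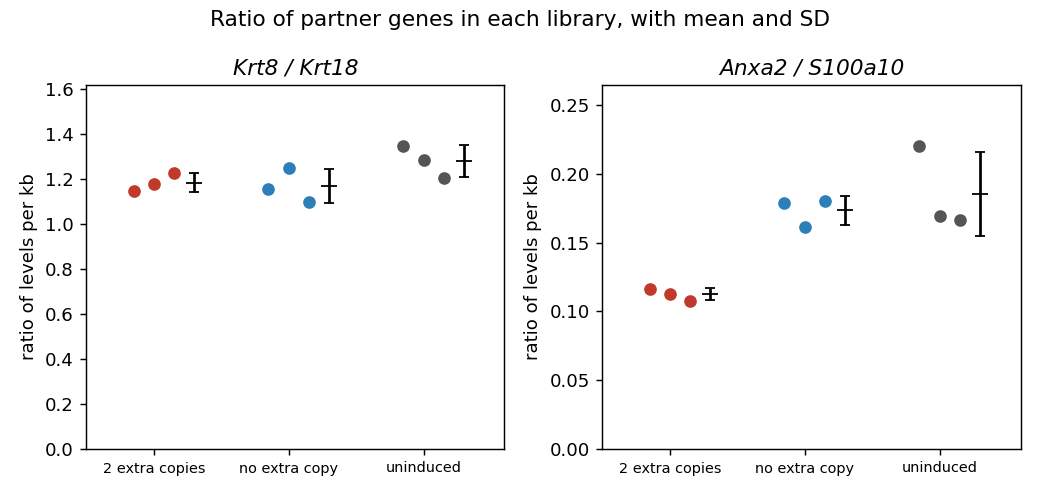
Ratios between members of known pairs, from levels per kilobase, in every library of cells with 2 extra copies, cells with no extra copy and uninduced cells; points are libraries and the black marks are the mean with SD. Krt8 per Krt18 had means of 1.18, 1.17 and 1.28 in those groups, and Anxa2 per S100a10 had its lowest mean, 0.112, in cells with 2 extra copies.

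The genes most like the mean profile of the 10 (mean of their standardised log2 CPM) were sought among 9477 other genes with at least 10 CPM on average. The 10 with the highest Pearson r over the 9 libraries were Tagln (0.979), Steap3, Avpi1, Pqlc1, Apoe, Pomgnt1, Anxa5, Col1a1, Cd63 and Gadd45b (0.965). Tagln, encoding the actin-binding protein transgelin, was at 53.8 CPM in cells with 2 extra copies, 83.1 CPM in cells with no extra copy and 34.5 CPM in uninduced cells. Apoe, the lipid carrier apolipoprotein E, was at 688 CPM in cells with 2 extra copies, 809 CPM in cells with no extra copy and 620 CPM in uninduced cells. An r above 0.9 was reached by 80 genes, which is 0.844% of those compared, and these values share the libraries and their group means.

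The summed level of the fibroblast markers had the order of the 10 genes, and 2 collagen genes carried it. The sum of 9 markers was 51.4 to 57.1 CPM in cells with 2 extra copies, 76.3 to 85.2 CPM in cells with no extra copy and 34.9 to 35.9 CPM in uninduced cells. Of its 6 tested genes, 2 fell in cells with 2 extra copies against cells with no extra copy, 3 rose in them over uninduced cells, and 3 rose in cells with no extra copy over uninduced cells. The matching shares of all genes tested were 7.7, 12.8 and 7.1%. Col1a1 and Col1a2 both passed in all 3 comparisons in that order, and Col1a2 was at 20.0 ± 3.07 CPM in cells with 2 extra copies, 36.4 ± 2.38 CPM in cells with no extra copy and 9.99 ± 0.676 CPM in uninduced cells (SD, n = 3 each). Pdgfrb had that order of means without passing a test. The other tested markers had another order: Col3a1 was at 5.45 CPM in cells with 2 extra copies, 4.32 CPM in cells with no extra copy and 2.45 CPM in uninduced cells, and Thy1 and Twist1 had their highest means in uninduced cells. Dcn, Lum and Postn, defining fibroblast genes, were under 1 CPM in every library. At that low level Dcn had the order of the 10 genes, and Lum and Postn did not. The means of Dcn were 0.213 CPM in cells with 2 extra copies, 0.440 CPM in cells with no extra copy and 0.0982 CPM in uninduced cells. The part of these markers in the values of the keratins, annexins, S100 genes and Lgals1 was not tested.

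None of the other 5 lists had 3 separate ranges in that order. The 10 trophectoderm markers summed to 129 to 133 CPM in cells with 2 extra copies, 125 to 140 CPM in cells with no extra copy and 119 to 130 CPM in uninduced cells, almost all of it from Tfap2c. Cdx2, Gata3, Elf5, Hand1, Plac1 and Tpbpa had a mean over all libraries under 1 CPM, with Tpbpa at 0 in every library. Gata3 and Hand1 did not pass the filter, and both were highest in cells with no extra copy with no overlap: Gata3 averaged 0.107 CPM in cells with 2 extra copies, 0.800 CPM in cells with no extra copy and 0.135 CPM in uninduced cells, and Hand1 averaged 0.344 CPM in cells with 2 extra copies, 0.918 CPM in cells with no extra copy and 0.327 CPM in uninduced cells. Of the 4 tested markers of this list, Eomes had its highest mean in cells with no extra copy and Esx1 its lowest there. Ascl2 and Tfap2c had their highest means in cells with 2 extra copies. Sox17 of the endoderm list and Wnt6 of the surface ectoderm list, also outside the filter, had the pattern of Gata3 and Hand1. The levels of these genes rest on few counts near the floor. The share of all genes with that pattern was not counted, so nothing is read from it. The part of any of these markers in the values of the 10 genes was not tested. The 10 endoderm markers summed to 12.3 to 17.9 CPM in cells with 2 extra copies, 20.2 to 22.4 CPM in cells with no extra copy and 17.7 to 18.7 CPM in uninduced cells, with Gata6, Sox17, Sox7, Foxa2, Afp and Ttr under 1 CPM in the mean over all libraries and Ttr at 0. The 5 surface ectoderm markers summed to 2.35 to 2.80 CPM in cells with 2 extra copies, 2.14 to 3.40 CPM in cells with no extra copy and 1.27 to 2.77 CPM in uninduced cells, with Trp63, Krt5, Krt14 and Wnt6 under 1 CPM in the mean over all libraries; Wnt6 averaged 1.09 CPM in cells with no extra copy. The 5 mesendoderm markers summed to 3.86 to 4.20 CPM in cells with 2 extra copies, 5.95 to 7.31 CPM in cells with no extra copy and 3.85 to 5.62 CPM in uninduced cells.

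**Figure D5:**
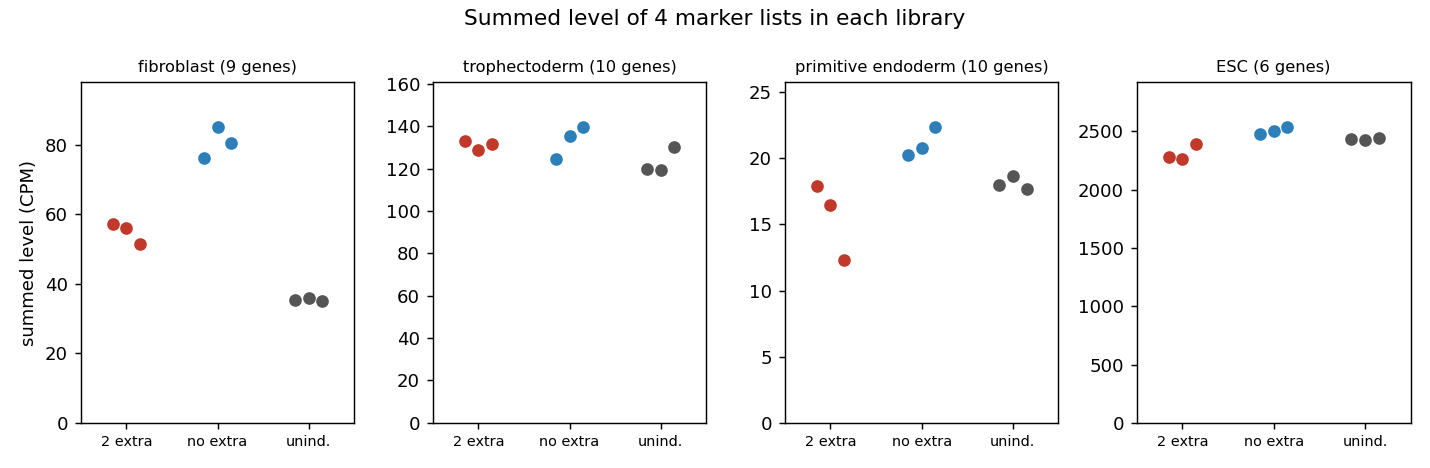
Summed level (CPM) of the fibroblast, trophectoderm, primitive endoderm and ESC marker lists in every library of cells with 2 extra copies, cells with no extra copy and uninduced cells; points are libraries. The fibroblast list has 3 separate levels, highest in cells with no extra copy (76.3 to 85.2 CPM) and lowest in uninduced cells (34.9 to 35.9 CPM), and the trophectoderm ranges overlap between groups.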

How the data were processed

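Total RNA of 9 sorted ESC samples gave single-end 75 bp reads, according to the labels' protocols. The values in the deposited table are expected counts, made by the authors for each gene with RSEM 1.17 on GRCm38, per the file headers and, for the version and build, per the submitters' processing notes; these list Picard, cutadapt and limma too, with no role. The column name gives annotation release 84. The aligner and the use of strand are not given in the sources used here. RSEM splits reads with several matches, so similar genes can exchange counts. None of the 10 genes had an annotated near copy (95% identity or more across 50% or more of the transcript, minimap2 2.31-r1302).

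The expected counts were rounded and filtered (filterByExpr by group), which left 13424 genes with 99.8% of the counts. Levels are CPM after TMM scaling. Differences were tested with edgeR 4.0.16 in R 4.3.3 (robust quasi-likelihood F-test, all 9 libraries, 1 coefficient per group, Benjamini-Hochberg over the genes tested). The threshold for a call was an adjusted p of 0.05. SE is the absolute log2 fold change over the root of F. Common dispersion gave a biological coefficient of variation of 0.0394. The procedure was tested on simulated data. Levels per kilobase use the principal transcript of GENCODE M21 (GRCm38), which names 35432 of the 35771 identifiers. Promoters came from the RefSeq table, which matched 6 of the 10 genes (not Krt19, Anxa3, S100a10 and Lgals1).

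The 10 genes and all lists were chosen with earlier results of these data known. From the relatives and 4 partner lists, up to 3 called genes per direction and comparison with the smallest p and a mean of at least 1 CPM could be named; the text names a part of them, picked after their values were seen. The alternatives were DESeq2 1.42.0, limma-voom (limma 3.58.1), other scaling factors, no filter, only the groups compared, a replicate block, a correction for the trend with transcript length, and leaving out each library.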

Additional observations from a re-analysis of the deposited data

How the results depend on the processing

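Counts of called genes changed with the tool and with single libraries; the cause was not tested. Between cells with 2 extra copies and cells with no extra copy, 2148 genes were called, 1075 with DESeq2, and 1397 to 2564 with 1 library left out. The lowest was without replicate 2 of the no-extra cells and the highest without replicate 1 of the 2-extra cells. Of the 10 genes, 9 were called, 5 with DESeq2 and 5 to 9 with 1 library left out; of the relatives 8 were called, 5 with DESeq2 and 5 to 8 with 1 library left out, the lowest without replicate 3 of the 2-extra cells. Between cells with 2 extra copies and uninduced cells, 3350 genes were called, 1889 with DESeq2 and 2453 to 3719 with 1 library left out, the lowest without replicate 3 of the 2-extra cells; of the 10 genes 6 were called in each of these leave-one-out fits, and of the relatives 4, or 2 with DESeq2 and 3 to 4 with 1 library left out. Between cells with no extra copy and uninduced cells, 1811 genes were called, 806 with DESeq2 and 1177 to 2201 with 1 library left out, the lowest without replicate 2 of the no-extra cells; of the 10 genes 8 to 10 and of the relatives 5 to 6 were called with 1 library left out. Of the genes called between the induced groups, 36.3% were higher with scaling by library size alone, against 51.9% with TMM.

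Libraries with the same replicate number had correlations of deviations from -0.0813 to 0.0807, none over 0.1. Those with different numbers had -0.0755 to 0.0561. With 3 libraries per group, these values cannot show whether libraries of 1 number came from the same culture. With the replicate numbers as a block, 2233, 3440 and 1933 genes were called in the 3 comparisons, and 9, 6 and 9 of the 10 genes. Of 570 alternative values for the 30 fold changes of the 10 genes, 562 moved by less than the spread between replicates and none changed sign. Among 1026 alternative values for 54 results of named or called list genes, 106 lost the call, 1 could not be had with DESeq2 and none changed sign. Krt7 and Krt19 had the lowest mean levels of the 10 genes, 4.15 and 8.23 CPM over all libraries. Krt19 had the widest spread between replicates of the 10, and the part of depth in it was not tested.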
